A study of Mus musculus with 8 samples.

Results

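The chemoattractant receptors described here are 9 mouse genes: Ccr1, Ccr2, Cx3cr1, Cxcr4, C3ar1, C5ar1, Fpr1, Fpr2 and Cmklr1. They were picked by name, with earlier results of these data known, and are 9 of the 17492 genes in the deposited table. Their transcripts were measured by RNA sequencing in macrophages grown from C57BL/6 mouse bone marrow. In 4 libraries, called serine/glycine-free, the medium lacked serine and glycine, 2 amino acids that feed one-carbon and glutathione metabolism, and 4 control libraries came from cells in normal medium. All 8 libraries share the strain and the cell type, and no genetic change is given for either group. The labels give neither the length of the withdrawal, nor any stimulation of the cells, nor whether each library is a culture or an animal of its own. Each p-value is thus set against the spread of these 8 libraries alone, and that spread may be technical.

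These receptors are heptahelical membrane proteins that sense gradients of secreted or microbial ligands. On binding, they activate heterotrimeric G proteins of the Gi class, whose beta-gamma subunits recruit phosphoinositide 3-kinase gamma, Rac activators and Src family kinases and so drive cell migration. G protein-coupled receptor kinases, beta-arrestins and RGS proteins then switch the signal off. In monocytes and macrophages, Ccr2 serves the exit of monocytes from marrow, Cxcr4 holds cells in niches rich in Cxcl12, and the receptors for complement fragments and formylated peptides guide cells to sites of infection and injury.

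Library totals lay between 17565291 and 18201599 estimated counts, and 11700 genes were tested. A count of 0 allows up to 3 counts, which is 0.165 to 0.171 CPM (counts scaled by library size), for counting error only. Of 8 macrophage markers, such as Adgre1 and Csf1r, 4 rose and 4 fell, where 15.9% and 17.3% of all tested genes rose and fell. Their TPM (counts scaled by transcript length and library) summed to 24220 to 25490 in control and 25200 to 26540 in serine/glycine-free libraries. Markers of neutrophils summed to 5.39 to 7.57 TPM in control and 12.97 to 15.5 TPM in serine/glycine-free libraries. S100a8 made up most of these sums, with means of 5.62 TPM in control and 13.5 TPM in serine/glycine-free libraries. At the same time 6 of these 9 markers were at or under 3 counts in every library. Markers of monocytes summed to 8.76 to 11.06 and 5.34 to 8.51 TPM. In bulk RNA, fewer cells of a type and less RNA per cell cannot be told apart.

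Of the 9 receptors, 6 rose in serine/glycine-free cells, 1 fell and 2 did not pass the test. Cxcr4 and Ccr1 rose by 0.74 and 0.61 on the log2 scale, C3ar1, C5ar1, Fpr1 and Fpr2 by 0.10 to 0.17, and Ccr2 fell by 0.70. Cx3cr1 and Cmklr1 had log2 changes of -0.03 and -0.12. The test was edgeR's quasi-likelihood test with Benjamini-Hochberg adjustment over all 11700 genes at 0.05. By that rule 33.2% of all tested genes were called, 15.9% higher and 17.3% lower, against 7 of the 9 receptors, 6 higher and 1 lower. The CPM ranges of the groups did not overlap for 7 receptors, as for 30.6% of all tested genes. The median log2 change was 0.12 over the receptors and 0.01 over all tested genes, and the median size of the change was 0.14 and 0.10.

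**Figure D1:**
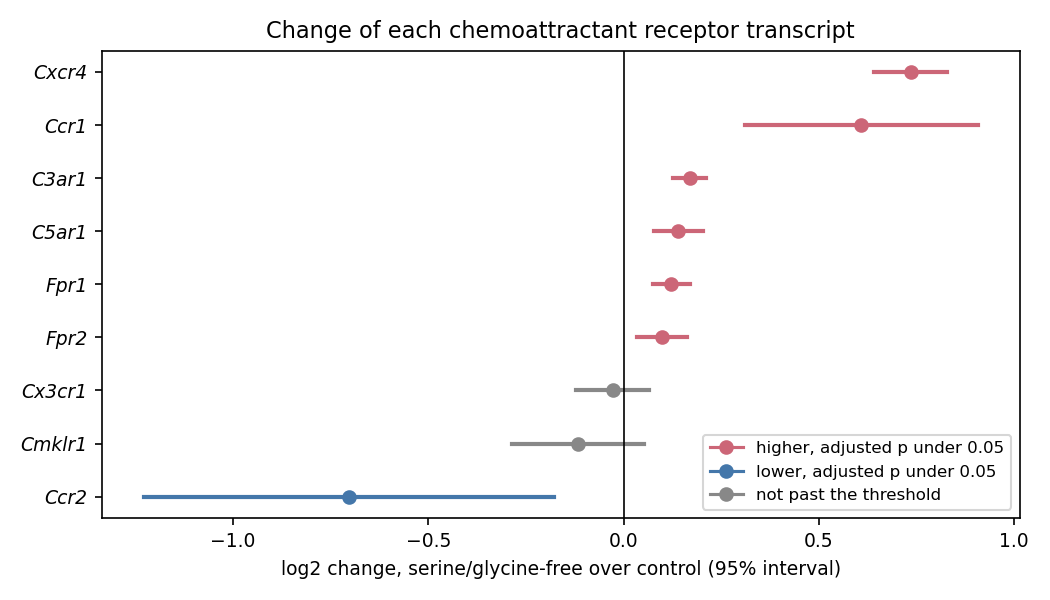
Log2 change of serine/glycine-free over control for each of the 9 receptors, with points for the estimate and lines for its 95% interval. The intervals of Cxcr4, Ccr1, C3ar1, C5ar1, Fpr1 and Fpr2 lie above 0, that of Ccr2 below 0, and those of Cx3cr1 and Cmklr1 cross 0.

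In control cells, mean levels per transcript length spanned from 729 TPM to under 1 TPM. Fpr1, which binds formylated bacterial peptides, was at 729 ± 9.09 TPM (SD, n = 4) and C3ar1, the receptor for complement fragment C3a, at 711 ± 11 TPM. Their ranges overlapped in control, and again in serine/glycine-free cells, where C3ar1 stood at 783 ± 10.2 TPM and Fpr1 at 776 ± 20.3 TPM, so their order was not resolved in either group. These 2 transcripts made up 77.6% to 78.5% of the summed TPM of the 9 receptors in each library. The sum itself was 1828 to 1858 TPM in control and 1959 to 2025 TPM in serine/glycine-free libraries.

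The other 7 receptors kept 1 order in both groups, and no neighbours in that order overlapped. Fpr2, a formyl peptide receptor that also binds annexin A1, was at 204 ± 6.64 TPM in control and C5ar1, the receptor for complement fragment C5a, at 138 ± 5.69 TPM. Below them came Cxcr4, the receptor for Cxcl12, at 31.2 ± 1.77 TPM, and Cx3cr1, the receptor for fractalkine, at 18.6 ± 0.852 TPM. Cmklr1, the chemerin receptor, was at 6.80 ± 0.531 TPM. Ccr1, which binds Ccl3, Ccl5, Ccl6 and Ccl9, was at 1.63 ± 0.217 TPM, and Ccr2, which binds Ccl2, Ccl7 and Ccl12, at 0.575 ± 0.107 TPM. Over all libraries C3ar1 and Fpr1 each exceeded 98.2% of tested genes, and Ccr2 exceeded 2.5% of them.

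**Figure D2:**
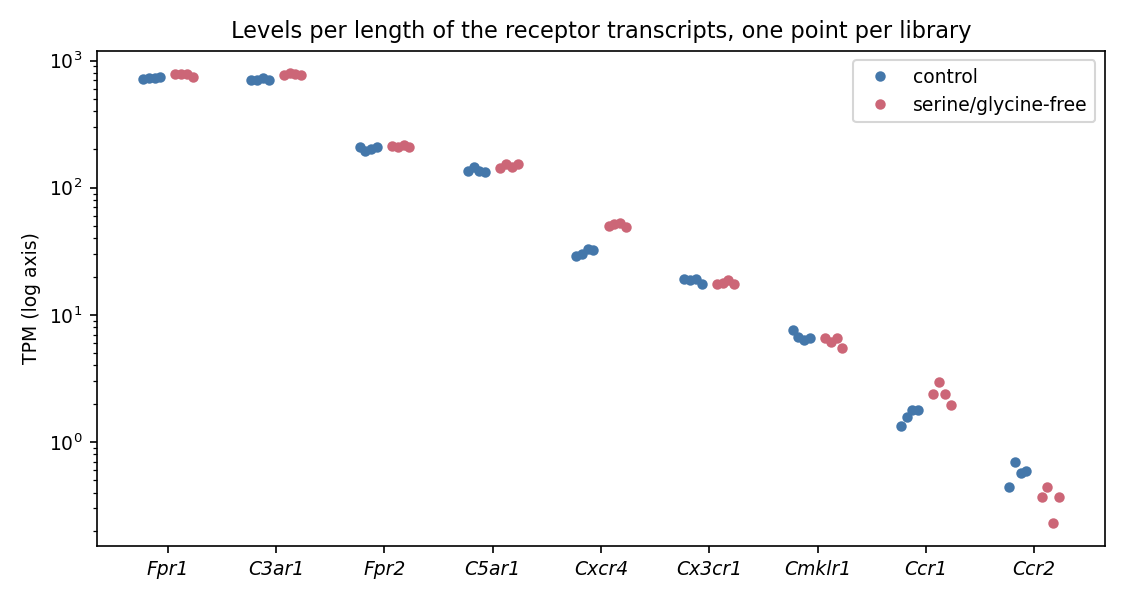
Transcript level per length of each receptor in TPM, on a log axis, with 1 point per library (4 control, 4 serine/glycine-free). Fpr1 and C3ar1 lie side by side at 711 to 783 TPM on average, and Ccr2 lies under 1 TPM in each.

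Cxcr4 lies on chromosome 1 (GRCm38.p6, 128588199 to 128592299, minus strand; Entrez 12767), and its protein has 359 residues encoded by 2 coding exons. As it had the largest rise of the 9, the 250 bases before its RefSeq start site are shown, with those before Ccr1, the other receptor that rose by over 0.5. Both run 5′ to 3′ on the minus strand, at chr1:128592300-128592549 for Cxcr4 and chr9:123968693-123968942 for Ccr1, and capitals mark matches to any motif searched.
Cxcr4: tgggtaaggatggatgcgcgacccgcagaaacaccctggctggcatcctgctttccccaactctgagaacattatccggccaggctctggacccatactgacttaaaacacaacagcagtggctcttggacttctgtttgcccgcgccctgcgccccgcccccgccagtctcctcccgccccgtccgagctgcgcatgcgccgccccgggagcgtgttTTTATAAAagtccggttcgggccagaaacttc
Ccr1: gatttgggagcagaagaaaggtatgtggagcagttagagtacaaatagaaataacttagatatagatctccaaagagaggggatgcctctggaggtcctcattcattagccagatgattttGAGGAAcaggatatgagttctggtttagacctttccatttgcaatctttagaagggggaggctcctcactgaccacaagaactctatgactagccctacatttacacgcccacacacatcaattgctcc
The motifs, searched on both strands, were GAGGAA (the core bound by PU.1), TTGCNNAA (C/EBP), ACGTG (the hypoxia response core), TGACNNNGC (NRF2), TGANTCA (AP-1), CCAAT and TATAAA. Cxcr4 held TATAAA 30 bases before its start, overlapped by a match on the opposite strand, a motif found in 12.4% of the 32851 RefSeq windows of this length. Ccr1 held GAGGAA 129 bases before its start, as 23.3% of windows do. The Cxcr4 window was 61.2% G and C, that of Ccr1 43.6%, and the median window 52.4%. A match is a description of the letters, not of a site in use.

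Cxcr4 was at 27.2, 27.5, 30.1 and 29.5 CPM in control libraries 1 to 4 and at 46.7, 47.2, 48.9 and 47.6 CPM in serine/glycine-free libraries 1 to 4. Every serine/glycine-free library was above every control library, and the ranges were far apart. The means were 28.6 ± 1.46 and 47.6 ± 0.979 CPM (SD, n = 4), a log2 change of 0.74 (SE 0.0463, adjusted p = 3.32e-17 by edgeR). The size of this change exceeded that of 98.1% of tested genes, while the changes of C3ar1, C5ar1, Fpr1 and Fpr2 exceeded 49.4% to 70.4%. In each of 19 alternatives, among them the same fit at a stricter threshold, Cxcr4 rose, by 0.69 to 0.76. Among markers of neutrophils, which also express Cxcr4, S100a8 was the only gene with enough counts to test and rose from 0.755 to 1.87 CPM (log2 change 1.30, adjusted p = 8.97e-06). The other 8 neutrophil markers were at 6 counts or fewer in every library. Of these, Ly6g and Elane were at 0 in every control library, Mpo and Retnlg were at 0 in every serine/glycine-free library, and S100a9 was at 0.167 and 0.182 CPM. Whether those cells have a part in the Cxcr4 change was not tested.

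Ccr1 was low, at 36 to 47 counts in control and 53 to 79 counts in serine/glycine-free libraries. In CPM it was at 2.01, 2.32, 2.64 and 2.64 in control libraries 1 to 4 and at 3.62, 4.38, 3.62 and 3.03 in serine/glycine-free libraries 1 to 4. The groups did not overlap, although serine/glycine-free library 4 came close to the controls. The mean went from 2.40 ± 0.301 CPM in control to 3.66 ± 0.555 CPM, a log2 change of 0.61 (SE 0.148, adjusted p = 0.00105 by edgeR). On the scale of log2(TPM + 1), where a pseudocount compresses low values, the change was 0.38 (adjusted p = 0.00493).

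Ccr2 was the only receptor of the 9 that fell, and it did so at 8 to 24 counts per library. It was at 0.895, 1.32, 1.12 and 1.13 CPM in control libraries 1 to 4 and at 0.713, 0.832, 0.445 and 0.743 CPM in serine/glycine-free libraries 1 to 4. Serine/glycine-free library 2 lay just under control library 1, with no overlap, while in TPM both were at 0.44. The log2 change was -0.70 (SE 0.260, 95% interval -1.23 to -0.18, adjusted p = 0.0329 by edgeR). The call was lost in DESeq2 (adjusted p = 0.122), on log2(TPM + 1) (log2 change -0.22, 0.0561), and without any 1 of 5 libraries: serine/glycine-free 1 (0.0526) or 3 (0.129), or control 2 (0.107), 3 (0.0591) or 4 (0.0570).

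Transcripts of marrow monocytes, the cells known for high Ccr2, were low in both groups. Of 4 tested monocyte markers 3 fell, where 17.3% of all tested genes did. Chil3, the other, went from 1.15 to 1.52 CPM and did not pass the test (log2 change 0.41, adjusted p = 0.153 by edgeR). Plac8 fell from 0.881 to 0.180 CPM (log2 change -2.24, adjusted p = 1.05e-04 by edgeR; 0.0610 on log2(TPM + 0.1)). F13a1 fell with a log2 change of -0.49 (adjusted p = 0.0294), a call lost in DESeq2 and without serine/glycine-free library 2 or 4 or control library 1 or 3 (adjusted p up to 0.17). Ly6c2, the defining surface marker, had too few counts to test, at 0.084 CPM in control and 0.112 CPM in serine/glycine-free cells. The part of these cells in the Ccr2 change was not tested.

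Ccr1 and Ccr2 stand in 1 cluster of chemokine receptor genes on chromosome 9, and moved in opposite directions there. Ccr1 (123962126 to 123968692, minus strand; Entrez 12768; 355 residues) and Ccr2 (124101918 to 124109140, plus strand; Entrez 12772; 373 residues) start 133.2 kb apart. Ccr3, between them, was at 7.16 CPM in control and 6.90 CPM in serine/glycine-free cells and did not pass the test (log2 change -0.05, adjusted p = 0.712 by edgeR). Of the 6758 words of 50 bases in Ccr2 transcripts 1.91% also occur in transcripts of other genes, so a small share of its reads could be split. Xcr1 did not pass the test, and Ccr9, Cxcr6 and Ccr1l1 had too few counts.

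**Figure D3:**
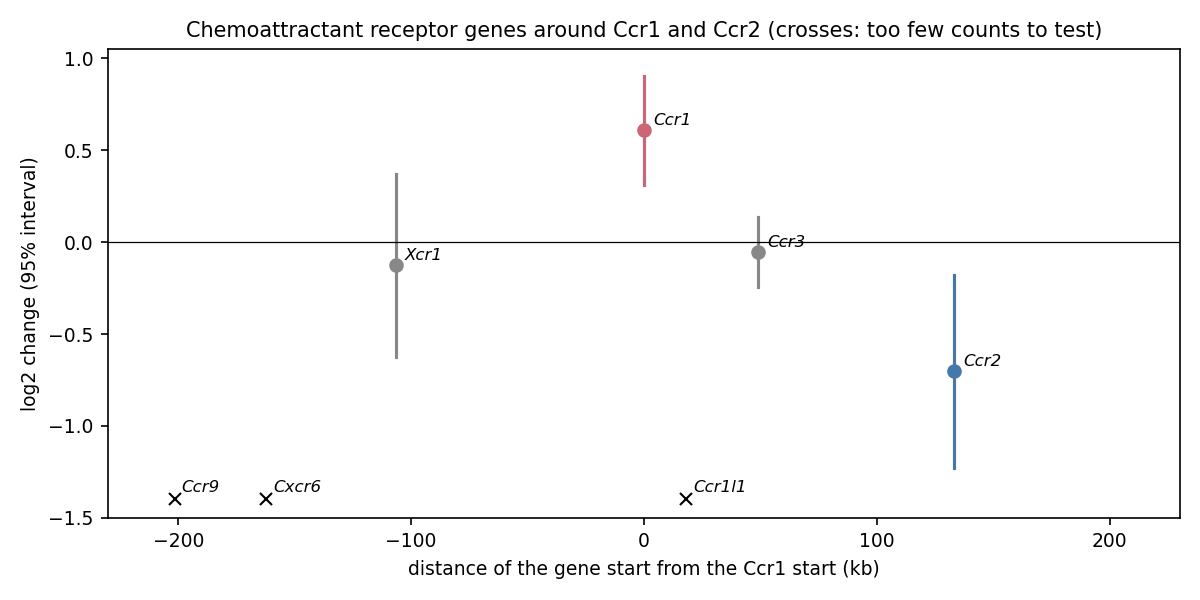
Chemoattractant receptor genes near Ccr1 on chromosome 9 (7 genes), with the log2 change of the tested ones by the distance of their start from the Ccr1 start in kb, with 95% intervals (red, higher; blue, lower; grey, not past the threshold; crosses, too few counts, placed at the foot of the plot and not at a value). Ccr1 is above 0, Ccr2, at 133.2 kb, is below 0, and the intervals of Xcr1 and Ccr3 cross 0.

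Cx3cr1, also on chromosome 9 (120048683 to 120068296, minus strand; Entrez 13051; 354 residues), marks resident-type monocytes and many tissue macrophages. It was at 36.5, 35.0, 35.6 and 34.0 CPM in control libraries 1 to 4 and at 34.2, 34.0, 35.6 and 34.6 CPM in serine/glycine-free libraries 1 to 4. The groups overlapped throughout. Its log2 change was -0.03 with a 95% interval of -0.12 to 0.07 (adjusted p = 0.686 by edgeR). It did not pass the test in any of 19 alternatives, counted as for Cxcr4.

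Both complement receptors rose. C3ar1 (chromosome 6, 122847140 to 122856157, minus strand; Entrez 12267; 477 residues) was at 1635, 1604, 1650 and 1615 CPM in control libraries 1 to 4 and at 1804, 1814, 1840 and 1857 CPM in serine/glycine-free libraries 1 to 4. The groups were well separated, and the log2 change was 0.17 (SE 0.0212, adjusted p = 1.23e-08 by edgeR), or 1.12-fold. C5ar1 (chromosome 7, 16246743 to 16259540, minus strand; Entrez 12273; 351 residues) was at 179, 188, 175 and 173 CPM in control libraries 1 to 4 and at 190, 199, 191 and 209 CPM in serine/glycine-free libraries 1 to 4. Control library 2 came close to the lowest serine/glycine-free library, and in TPM the groups overlapped, at 133 to 146 in control and 143 to 153. The log2 change of C5ar1 was 0.14 (SE 0.0311, adjusted p = 0.000401). C5ar2, a second C5a receptor that lies next to C5ar1 and is known for weak G protein coupling, was at 5.90 and 5.61 CPM and did not pass the test (log2 change -0.07, adjusted p = 0.662).

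Fpr1 and Fpr2 are neighbours on chromosome 17 that are read away from each other. Fpr1 (17876471 to 17883939, minus strand; Entrez 14293; 364 residues) and Fpr2 (17887824 to 17893952, plus strand; Entrez 14289; 351 residues) start 3.9 kb apart. The 250 bases before each start are shown because the pair moved in the same direction, at chr17:17883940-17884189 (minus strand) for Fpr1 and chr17:17887574-17887823 (plus strand) for Fpr2, 5′ to 3′ with motif matches in capitals.
Fpr1: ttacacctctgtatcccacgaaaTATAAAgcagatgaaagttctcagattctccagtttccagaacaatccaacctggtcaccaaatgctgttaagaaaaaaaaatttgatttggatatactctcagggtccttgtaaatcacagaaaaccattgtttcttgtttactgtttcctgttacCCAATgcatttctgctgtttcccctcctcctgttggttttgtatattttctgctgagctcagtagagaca
Fpr2: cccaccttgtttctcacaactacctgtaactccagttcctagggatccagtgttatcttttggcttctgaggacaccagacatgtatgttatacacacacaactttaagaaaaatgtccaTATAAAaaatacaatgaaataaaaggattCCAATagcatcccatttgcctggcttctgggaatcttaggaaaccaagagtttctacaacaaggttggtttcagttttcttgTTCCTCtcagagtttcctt
Fpr1 held CCAAT 70 bases and TATAAA 227 bases before its start. Fpr2 held CCAAT at 101 bases, TATAAA at 130 bases and GAGGAA on the opposite strand at 19 bases. CCAAT was in 33.8% of all windows of this length, so that 5 of the 9 receptors with it (Cx3cr1, C5ar1, Fpr1, Fpr2 and Cmklr1) is a description only. No receptor window held TTGCNNAA, found in 9.6% of windows, and Ccr2 held none of the motifs searched. C3ar1 alone of the 9 held TGANTCA, 22 bases before its start, found in 6.7% of windows. ACGTG and TGACNNNGC, in 16.6% and 10.2% of windows, occurred among the 9 only in the Cmklr1 window. That window (chr5:113643604-113643853) and the Ccr2 window (chr9:124101933-124102182) lie inside the gene spans given here, not before them. The C5ar1 window (chr7:16259339-16259588) lies partly inside its gene span.

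Fpr1 was at 473, 465, 468 and 480 CPM in control libraries 1 to 4 and at 517, 509, 521 and 507 CPM in serine/glycine-free libraries 1 to 4, with no overlap. The log2 change was 0.12 (SE 0.0237, adjusted p = 5.78e-05 by edgeR). With the trend of change over transcript length removed it was 0.07 (adjusted p = 0.00753).

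Fpr2 was at 133, 122, 127 and 133 CPM in control libraries 1 to 4 and at 138, 133, 140 and 140 CPM in serine/glycine-free libraries 1 to 4. The groups met at 133 CPM without crossing. The log2 change was 0.10 (SE 0.0315, adjusted p = 0.013 by edgeR), and the call was lost after correction for transcript length (0.05, adjusted p = 0.217), without control library 2 (0.07, 0.0932), on log2(TPM + 1) (adjusted p = 0.111) and on log2(TPM + 0.1) (0.110). The Fpr2 level is less certain than the others, because 31.51% of its 1295 words of 50 bases also occur in transcripts of other genes. Chief among these were Gm5966 (368 words) and Fpr3 (82). Gm5966 has no deposited values, and Fpr3 was at 1 count or fewer in every library. The GENCODE span of Fpr3 overlaps Fpr2 on the same strand, while in RefSeq Fpr3 lies 76.5 kb away. Fpr1 shared 1 of its 1275 words, with Fpr2. Neutrophils are rich in both formyl peptide receptors and in C5ar1, and the part of neutrophil transcripts, given above, in these rises was not tested.

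Cmklr1 (chromosome 5, 113612355 to 113650475, minus strand; Entrez 14747; 371 residues) binds chemerin and is found on macrophages and plasmacytoid dendritic cells. It was at 9.67, 9.10, 8.75 and 9.06 CPM in control libraries 1 to 4 and at 8.33, 8.77, 8.74 and 7.89 CPM in serine/glycine-free libraries 1 to 4. The ranges overlapped between control library 3 and serine/glycine-free library 2. The log2 change was -0.12 with a 95% interval of -0.29 to 0.05 (adjusted p = 0.303 by edgeR). The gene Gm15736 overlaps the span of Cmklr1 on the opposite strand, and the sources used here do not say whether counting used strand. Of the 3344 words in Cmklr1 transcripts, counted as for Ccr2, 0.33% also occur in transcripts of other genes. Gm15736 was not among the partners with the most shared words. How many reads of the pair could be confused was not tested.

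**Figure D4:**
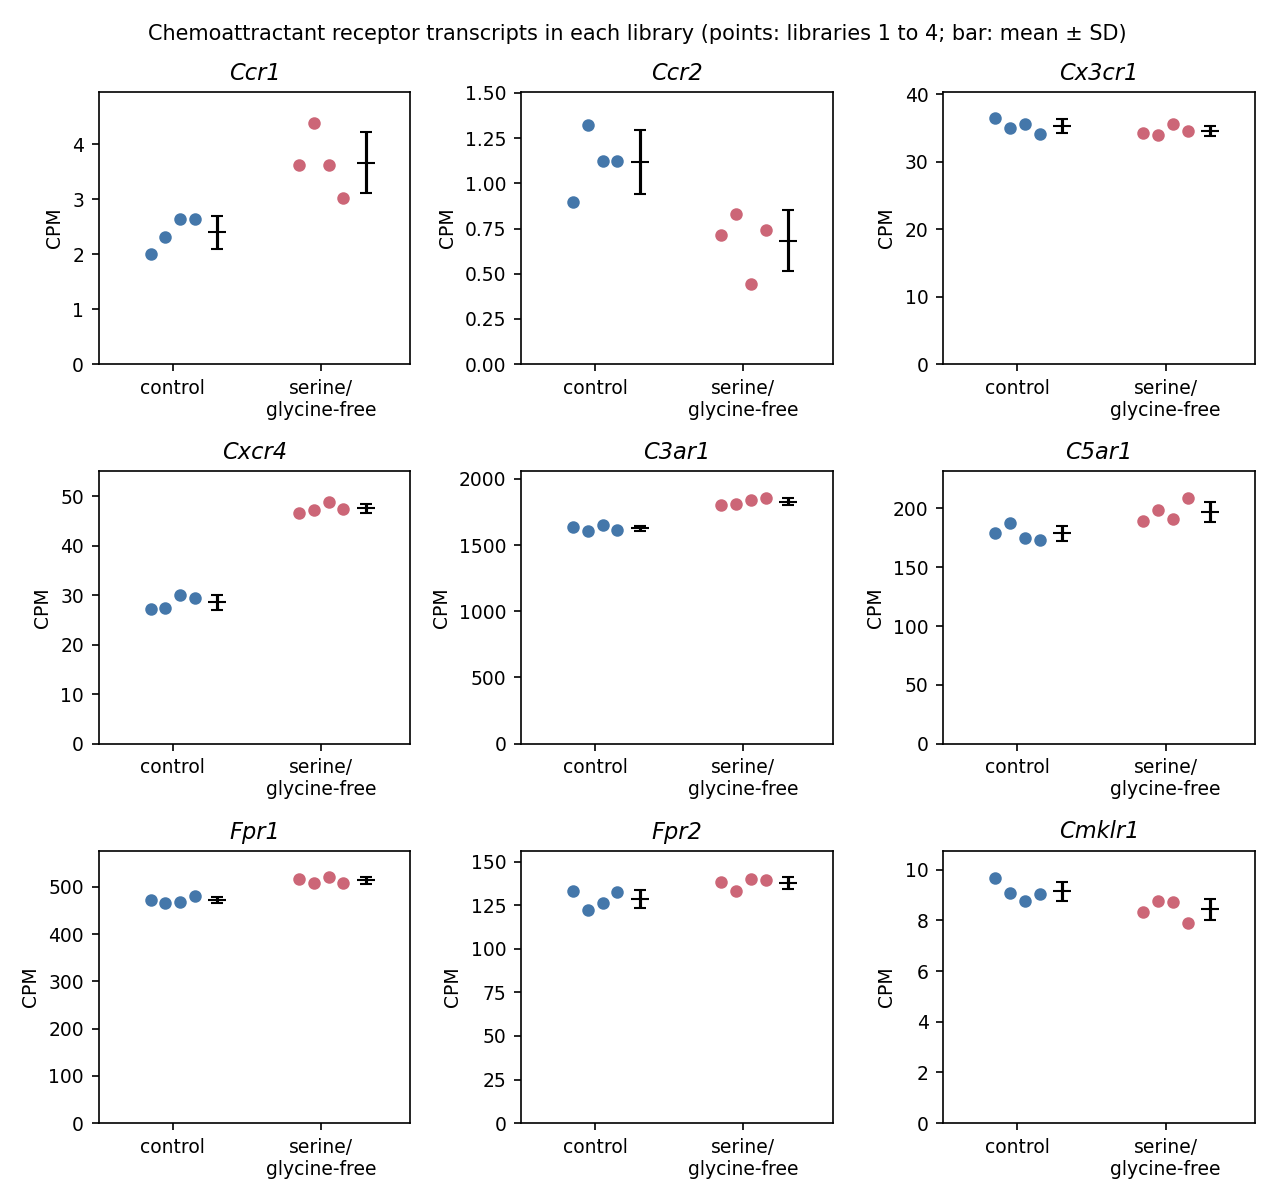
Level of each receptor in CPM in every library, with its own axis starting at 0 for each gene; points are libraries 1 to 4 of each group and bars the mean ± SD. Cxcr4 lies at 27.2 to 30.1 CPM in control and 46.7 to 48.9 CPM in serine/glycine-free libraries, while the points of Cx3cr1 and Cmklr1 overlap.

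Of 19 tested genes beside the receptors 5 were called, where 33.2% of all tested genes were. Of 30 neighbours, taken as the nearest 2 genes of the table on each side of a receptor and leaving out the 9 receptors themselves (Fpr1 and Fpr2 are neighbours of each other), 19 were tested, 1 rose, 4 fell and 14 were not called, with a median log2 change of -0.05. None of the 4 neighbours of C3ar1 (Slc2a3, Foxj2, Necap1 and Clec4a1) and none of the 4 of C5ar1 (Dhx34, C5ar2, Ccdc9 and Inafm1) passed the test in edgeR with all 8 libraries. Without control library 1, Foxj2 passed it (log2 change -0.13, adjusted p = 0.0323). Mcm6, a subunit of the replicative helicase 228.5 kb from Cxcr4, was the neighbour outside the 9 that rose (log2 change 0.21). Sart3, a neighbour of Cmklr1 and 1 of the 4 that fell (adjusted p = 0.0484 by edgeR), lost its call in 12 of 19 alternatives.

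Ligands of the 9 receptors were counted from a list of 17, of which 13 were tested, 5 rose, 1 fell and 7 did not pass the test. Over all tested genes 15.9% were called higher and 17.3% lower. The median log2 change was 0.10 for the ligands and 0.01 for all genes. After correction for transcript length, 3 of the ligands were higher and 3 lower. Anxa1, whose protein annexin A1 binds formyl peptide receptors, rose from 253 ± 6.73 to 382 ± 13.5 CPM (log2 change 0.59, adjusted p = 1.13e-21 by edgeR). Ccl9, a Ccr1 ligand, rose from 286 to 331 CPM (0.21, adjusted p = 1.25e-08). Ccl3, also a Ccr1 ligand, rose from 341 to 384 CPM (0.17, adjusted p = 9.77e-07; 0.09 and 0.188 after correction for transcript length). Ccl12, a Ccr2 ligand, fell from 6.27 ± 0.837 to 3.30 ± 0.409 CPM (-0.92, adjusted p = 4.17e-08). The other Ccr2 ligands on the list, Ccl2 and Ccl7, did not pass the test (log2 changes 0.10 and -0.07). Ccl2 passed it without serine/glycine-free library 2 (0.12, adjusted p = 0.027) and with scaling by library size alone (0.11, 0.0415), and 6 ligands were then higher in each case. Mif, also on the list of ligands, rose from 221 to 245 CPM (log2 change 0.15, adjusted p = 0.00114 by edgeR). After correction for transcript length its log2 change was 0.03 (adjusted p = 0.348 by edgeR). C3, also among the 5 that rose (log2 change 0.07, adjusted p = 0.0363 by edgeR), lost its call in 11 of 19 alternatives. Transcripts of Cxcl12, a ligand of Cxcr4, and of Hc, the precursor of C5a, were at 3 counts or fewer in every library. So were those of Rarres2, which encodes chemerin.

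Other chemoattractant receptors were counted from a list of 33, of which 10 were tested, 3 rose, 2 fell and 5 did not pass the test. Over all tested genes 15.9% were called higher and 17.3% lower. The median log2 change of the list was -0.07. Cxcr3, the receptor for interferon-induced chemokines, rose from 3.43 to 6.13 CPM (log2 change 0.83, adjusted p = 2.31e-07 by edgeR). S1pr1, a sphingosine 1-phosphate receptor, rose from 9.87 to 14.9 CPM (0.60, adjusted p = 1.41e-08), and Ccrl2, which binds chemerin without signalling, from 14.0 to 17.1 CPM (0.29, adjusted p = 7.04e-04). Gpr183, 1 of the 2 that fell, went from 12.7 to 10.3 CPM (-0.31, adjusted p = 0.00211 by edgeR).

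Among the signal carriers downstream of the receptors more genes fell than rose. Of 26 listed G protein subunits and migration effectors 25 were tested, 3 rose, 13 fell and 9 did not pass the test, with a median log2 change of -0.08, where 15.9% and 17.3% of all genes were called higher and lower. Rac2, the small GTPase of blood cells that drives actin assembly, fell from 2366 ± 37.7 to 1906 ± 49.0 CPM (log2 change -0.31, adjusted p = 1.19e-15 by edgeR). The Src family kinase Lyn fell by 0.28, and Elmo1, part of the Dock2 complex that activates Rac, by 0.31. Gnai2, a Gi alpha subunit, fell by 0.08 (adjusted p = 0.00554).

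Of the desensitization list 13 genes were tested, 3 rose, 6 fell and 4 did not pass the test. Over all tested genes 15.9% were called higher and 17.3% lower. The median log2 change of the list was -0.09. Rgs1, which shortens Gi signals downstream of chemokine receptors, rose from 36.3 ± 0.911 to 66.0 ± 2.44 CPM (log2 change 0.86, adjusted p = 5.16e-21 by edgeR). Rgs2, which acts mainly on Gq, rose from 39.2 to 49.6 CPM (0.34, adjusted p = 2.44e-08). Arrb1, which encodes beta-arrestin 1, fell from 408 to 318 CPM (-0.36, adjusted p = 2.95e-15), and Grk6, a receptor kinase that phosphorylates Cxcr4, from 140 to 105 CPM (-0.41, adjusted p = 4.23e-15). Arrb2, which encodes the other beta-arrestin, was at 365 and 371 CPM and did not pass the test (adjusted p = 0.651).

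**Figure D5:**
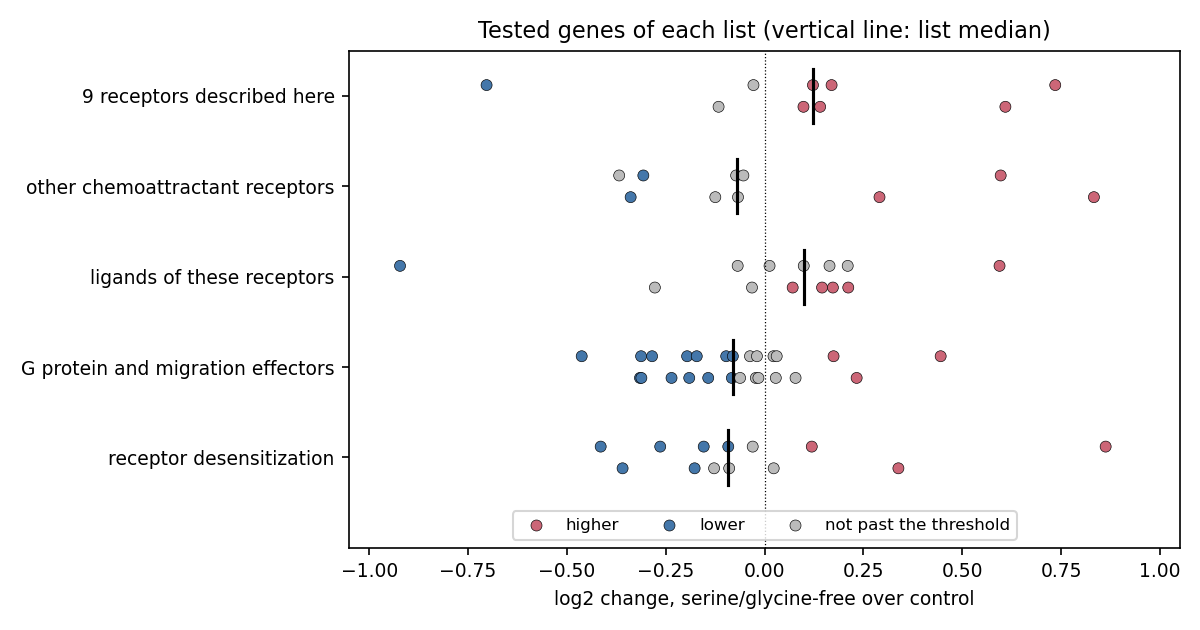
Log2 change of every tested gene in the 9 receptors and in 4 related lists (rows), with 1 point per gene coloured by call and a vertical line at each list's median. The medians of the receptors and their ligands, 0.12 and 0.10, lie right of 0, and those of the other 3 lists, -0.07 to -0.09, lie left of it.

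The genes whose CPM followed Cxcr4 most closely over the 8 libraries, among 9520 candidates, were Ptges (Pearson r = 0.996), Lox (0.996), Clec4d (0.996), Layn (0.995) and Ifi27 (0.995), with log2 changes of 0.95, 0.31, 0.84, 0.82 and 0.50. Ptges makes prostaglandin E2 from its precursor, Lox crosslinks collagen and elastin, and Clec4d is a C-type lectin of myeloid cells. For Ccr2, with its few counts, they were Arhgef10 (r = 0.978), Mfn2 (0.978), Capn15 (0.972), Brd2 (0.960) and Rgp1 (0.957), with log2 changes of -0.37, -0.17, -0.19, -0.06 and -0.08. Of these, Brd2 and Rgp1 did not pass the test with all 8 libraries, and Brd2 passed it only without serine/glycine-free library 4 (adjusted p = 0.0463 by edgeR). All points share the 2 groups of libraries, so these correlations follow the group difference at least in part and are given as a description.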

How the data were processed

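Per the labels' protocols, macrophage RNA was taken up in Trizol, and libraries used oligo-dT beads. The authors deposited estimated counts, FPKM and TPM for 17492 genes. The submitters' processing notes name BWA, Bowtie2, RSEM and GRCm38.p6, without versions or roles. Of the deposited estimated counts, 8.06% to 8.47% per library were not whole (tolerance 1e-06) and were rounded; those of the 9 receptors were whole. FPKM, by the authors, gave only each gene's effective length, and TPM values deposited by the authors gave levels between genes.

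The filter in edgeR, at a count of 10 and a total of 15, kept 11700 genes, which were scaled by TMM and compared with edgeR 4.0.16 in R 4.3.3 (quasi-likelihood F test, robust, 6 residual degrees of freedom, threshold 0.05); CPM values use TMM library sizes, and SE values come from the F statistic. The script was tested on simulated data. The receptors and gene lists were chosen with earlier results of these data known. Named genes were every receptor, up to 4 called genes per list by smallest adjusted p, the neighbours, and for the largest rise and fall the 5 genes of at least 5 CPM with the highest correlation; other genes were named after their values were seen, and some genes of the lists are not reported here. Within groups, libraries differed by more than sampling noise (chi-square per degree of freedom 1.42 to 3.59). Alternatives changed the scaling, filter, tool (DESeq2 1.42.0, limma 3.58.1), unit, threshold and libraries. Gene coordinates, distances and the 250-base windows are from RefSeq. Strands, exons, residues, overlapping genes and transcript sequences are from GENCODE, and both are for GRCm38.p6. All 9 receptors matched by Entrez ID.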

Additional observations from a re-analysis of the deposited data

Results flagged for a closer look

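In 46 groups of 4 libraries (23 genes, the 9 receptors and 14 named list genes, in 2 groups each), 2 held a library far from the other 3, where chance gives about 1 in 20. No receptor of the 9 was among them. Rac2 in serine/glycine-free library 4 was high at 1979 CPM, with the others at 1876 to 1886. Lyn in serine/glycine-free library 4 was low at 763.3 CPM, with the others at 779.9 to 782.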

How the results depend on the processing

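Of the 9 receptors, the number called higher was 5 or 6 in every alternative and the number called lower 1 or 0. It was 0, in place of 1, in DESeq2, on log2(TPM + 1), at an adjusted p under 0.01 and with a mean of at least 5 CPM, a filter that removes Ccr2 and Ccr1. Leaving out 1 library at a time gave 0 to 1 lower. Among the ligands, 3 rose with the length trend removed, and those that fell numbered 3 with that trend removed, 2 on both TPM scales and 0 at a mean of at least 5 CPM. Apart from genes removed by that filter, the cause of these differences was not tested. Ccr3 and C5ar2, neither called, changed sign when 1 library was left out, with ranges of -0.0807 to 0.0071 and -0.156 to 0.0114. Cxcr4, C3ar1, C5ar1 and Fpr1 kept their call in 19 alternatives and Ccr1 in 18; Ccr2 lost it in 8 of 18 and Fpr2 in 5 of 19. Same-numbered libraries did not deviate together (r = -0.048, 0.061, 0.051 and -0.094), so the shared number was not taken as a pairing. With a replicate block 6 receptors rose and 1 fell, and over all genes 1771 rose and 1884 fell. Counts of 8 to 24 for Ccr2 limit its precision most.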
